A study of Mus musculus with 6 samples.

Results

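Cytotoxic effector genes encode the proteins with which killer lymphocytes destroy target cells and signal to other leukocytes. The 10 genes described here are the granzymes Gzma, Gzmb, Gzmk and Gzmm, the pore protein gene Prf1, the granule genes Nkg7 and Ctsw, the death ligand gene Fasl, and the secreted factors Ccl5 and Ifng. They were listed by name, and every probe set that the platform annotation assigned to 1 of them was taken. This gave 12 probe sets of 45037 tested, with Prf1 and Fasl represented by 2 each, and all 10 genes of 18194 were measured. Of the 12 probe sets 0 carried a suffix that marks possible cross-hybridisation with other genes.

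The arrays compared T cells of miR-142 KO mice (KO, 3 arrays) with those of WT littermates (WT, 3 arrays). All were C57BL/6 males aged 10 weeks, and each preparation came from the spleen of 1 mouse by negative selection, which leaves unlabelled cells of any kind in the sample. The labels name whole KO animals and no Cre or cell type restriction. The deposited values were log2 intensities of probe sets, RNA was amplified before hybridization, and 6 arrays allow only coarse precision. The median level of an array was 5.70 to 5.77, and arrays correlated at 0.994 to 0.996 within WT, 0.986 to 0.995 within KO and 0.940 to 0.965 between the groups. Differences are given in log2 as KO minus WT, with the standard error (SE) that limma gave. Rose and fell stand for an adjusted p below 0.05 over all probe sets.

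In cytotoxic granules, perforin opens the target cell membrane and granzymes enter to cleave proteins inside. Fas ligand kills through a surface receptor instead, while CCL5 attracts leukocytes and interferon gamma activates macrophages and antigen presentation. Naive T cells make little of these products, and memory CD8 T cells, NK cells and other innate-like lymphocytes make more. In bulk RNA, fewer cells of a type cannot be told apart from less RNA per cell.

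Both mature strands of miR-142 are shown first because it is the microRNA named in the KO label, with the seed (bases 2 to 8) in capitals. The sequences are those of RefSeq on GRCm38.p6, plus strand, at chr11:87756867-87756887 for the 5p and chr11:87756903-87756925 for the 3p strand.
mmu-miR-142a-5p: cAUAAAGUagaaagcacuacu
mmu-miR-142a-3p: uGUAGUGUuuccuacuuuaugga

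The transcript listed as Mir142 measured 7.93, 8.13 and 7.67 on the WT arrays and 5.97, 5.88 and 5.90 on the KO arrays. It thus separated the genotypes on every array, with a difference of -1.99 ± 0.13 (limma adjusted p = 6.6e-05). It checks the labels only if its probes lie in the deleted part, which the sources used here do not say.

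Promoters of 3 effector genes are shown next because these genes moved in opposite directions, Gzmb upward and Prf1 and Gzmk downward. Each line gives the 250 bases before the start of the gene from RefSeq's GRCm38.p6 table. Gzmb lies at chr14:56262335-56262584 on the minus strand, Prf1 at chr10:61297586-61297835 on the plus strand and Gzmk at chr13:113180966-113181215 on the minus strand. Capitals mark matches to a T-box motif (GGTGTGA), a RUNX motif (TGTGGT), an AP-1 motif (TGACTCA) or a STAT motif (TTCNNNGAA) on either strand.
Gzmb: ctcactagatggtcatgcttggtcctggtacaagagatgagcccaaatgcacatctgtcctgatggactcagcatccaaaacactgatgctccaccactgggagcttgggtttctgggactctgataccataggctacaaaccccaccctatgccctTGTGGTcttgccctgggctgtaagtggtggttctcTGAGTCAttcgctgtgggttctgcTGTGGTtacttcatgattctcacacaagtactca
Prf1: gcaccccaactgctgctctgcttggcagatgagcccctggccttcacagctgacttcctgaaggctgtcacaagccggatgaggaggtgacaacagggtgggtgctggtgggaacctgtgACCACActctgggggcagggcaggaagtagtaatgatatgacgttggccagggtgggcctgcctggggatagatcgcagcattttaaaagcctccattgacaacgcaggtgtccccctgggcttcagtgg
Gzmk: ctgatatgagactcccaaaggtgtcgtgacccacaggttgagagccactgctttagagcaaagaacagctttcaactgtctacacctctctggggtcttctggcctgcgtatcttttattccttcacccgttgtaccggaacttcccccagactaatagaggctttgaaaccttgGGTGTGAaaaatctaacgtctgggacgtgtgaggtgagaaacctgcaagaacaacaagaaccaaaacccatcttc

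The search covered windows of 300 bases, 50 of them after the start, and RefSeq's table held a window for 8 of the 10 member genes, 9 windows in all since Gzmm has 2 starts. In the Gzmb window, RUNX letters began 93 and 34 bases before the start and AP-1 letters 58 bases before it, with STAT letters in the part after the start. The Prf1 window held RUNX letters from 130 bases before the start, and the Gzmk window T-box letters from 75 bases before it. Over the members, RUNX letters stood in 5 windows, STAT letters in 4, T-box letters in 3 (Nkg7, Gzmm, Gzmk) and AP-1 letters in 1. Of all 32851 promoter windows, 16.8% held the RUNX letters, 8.30% the STAT letters, 3.98% the T-box letters and 5.20% the AP-1 letters. Matches in the member windows overlapped each other in 0 cases. These are matches of letters, and no binding was measured.

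Most cytotoxic effector genes fell in KO, while granzyme B alone of the 10 rose. Of the 12 probe sets 9 fell and 1 rose, against 15.5% and 13.9% of all probe sets tested. With each gene at its brightest probe set, 8 of the 10 genes fell and Gzmb rose, where 18.6% of all genes fell and 18.6% rose. Scaling the deposited values of each array to the array's hybridization controls, on top of the deposited normalization, added 0.37 to every difference. The same scaling moved the median of all probe sets from -0.08 to 0.29. It turned the 6242 rises and 6986 falls over all probe sets into 17309 and 2337, and left 6 falls and the Gzmb rise among the 10 genes. The median difference was -1.82 over the 10 genes and -0.06 over all genes. On 11 of the 12 probe sets every KO array lay below every WT array, and on 1 every KO array lay above, arrangements seen for 27.4% and 18.5% of all probe sets. The plot of member values by array shows these gaps.

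**Figure D1:**
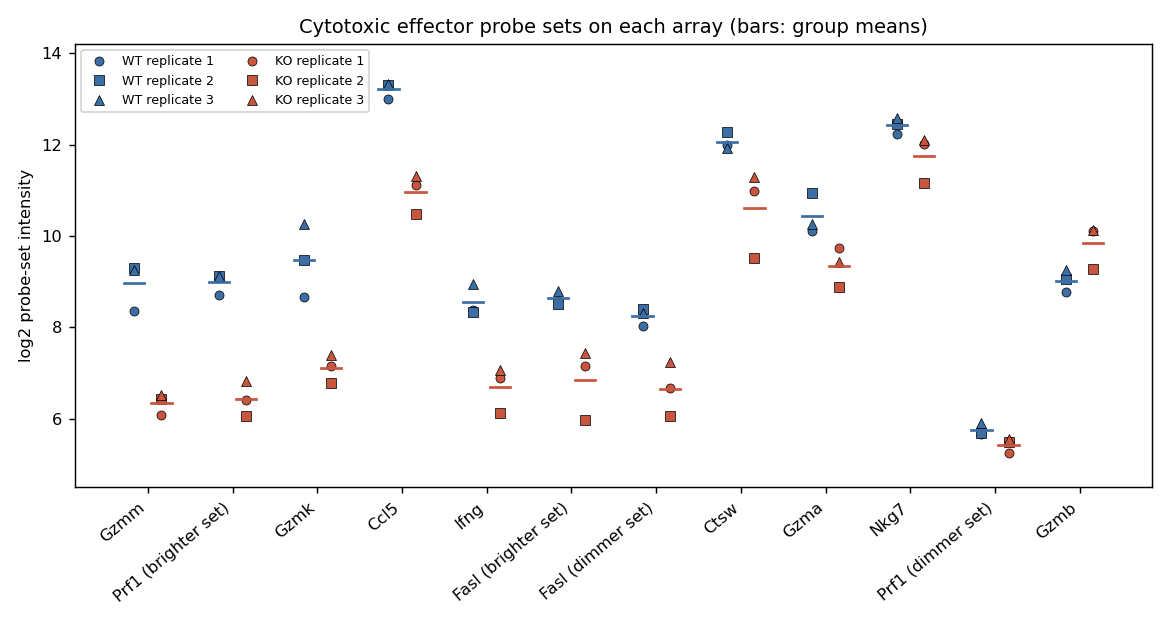
Log2 intensity of the 12 cytotoxic effector probe sets (vertical axis) on the 3 WT arrays (blue) and the 3 KO arrays (red), ordered from the largest fall to the rise, with group means as bars. KO arrays sit below WT arrays on 11 probe sets and above them on Gzmb, where the nearest arrays of the groups are 0.02 apart.

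Granzyme M, a serine protease that prefers to cut after methionine or leucine, showed the largest difference of the granzymes. Gzmm measured 8.35, 9.31 and 9.25 on the WT arrays and 6.09, 6.43 and 6.51 on the KO arrays. The groups were 1.84 apart at their nearest arrays, and Gzmm fell 6.17-fold, by 2.62 ± 0.26 on the log2 scale (SE, n = 3 per group, limma adjusted p = 0.00036). Granzyme K, a trypsin-like protease of memory T cells, stood at 8.66, 9.48 and 10.27 in WT and at 7.15, 6.78 and 7.39 in KO. The WT arrays were the more spread (SD 0.80, against 0.31 in KO), and Gzmk fell 5.16-fold, a difference of -2.37 ± 0.38 (limma adjusted p = 0.003).

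Granzyme A, the trypsin-like protease encoded beside Gzmk on chromosome 13, differed by less. Its values were 10.10, 10.93 and 10.26 in WT and 9.75, 8.89 and 9.43 in KO, so that 0.36 separated the nearest arrays. Gzma fell 2.11-fold (-1.08 ± 0.28, limma adjusted p = 0.023). That call was lost without WT replicate 2 (adjusted p = 0.064) or KO replicate 3 (0.055), and with arrays scaled to their hybridization controls the difference was -0.71 (0.083). The 95% intervals of these neighbours, -1.72 to -0.43 for Gzma and -3.25 to -1.49 for Gzmk, overlap.

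Granzyme B, which cuts after aspartate and activates caspases in the target, went the other way. Gzmb measured 8.77, 9.05 and 9.26 on the WT arrays and 10.11, 9.28 and 10.13 on the KO arrays. KO replicates 1 and 3 lay well above WT, whereas KO replicate 2 lay 0.02 above the highest WT array. Gzmb rose 1.76-fold, by 0.82 ± 0.25 (95% interval 0.24 to 1.39, limma adjusted p = 0.043). Without KO replicate 2 the difference was 1.10 (adjusted p = 0.0011), and without any other single array it lay between 0.67 and 0.93 and the call was lost (adjusted p from 0.06 to 0.14). The Gzmb difference was 1.18 (0.0079) under hybridization-control scaling. Its interval does not meet those of Gzma, Gzmk and Gzmm.

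Perforin, the pore-forming protein of the granule, fell on its brighter probe set about as far as Gzmm. That probe set measured 8.71, 9.13 and 9.13 in WT and 6.41, 6.07 and 6.83 in KO. The nearest arrays were 1.88 apart, and Prf1 fell 5.87-fold (-2.55 ± 0.21, limma adjusted p = 0.00017). The dimmer Prf1 probe set, at the 47.4th percentile of all levels, held 5.66 to 5.90 in WT and 5.25 to 5.55 in KO. It differed by -0.32 ± 0.12, which did not pass the test (limma adjusted p = 0.079), and by 0.05 under hybridization-control scaling. The Prf1 probe sets therefore disagree in size, and RMA values give no detection call for the dimmer one.

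Among the other granule genes, cathepsin W and NKG7 lay at the 96.3rd and 98.2nd percentiles of all levels. Ctsw, a cysteine protease of T and NK cells, measured 11.98, 12.27 and 11.93 in WT and 10.99, 9.52 and 11.30 in KO. Ctsw fell 2.74-fold (-1.45 ± 0.42, limma adjusted p = 0.037), with KO replicate 2 far below the other KO arrays. Without KO replicate 2 the Ctsw difference was -0.91 (0.0025), and the call was lost without WT replicate 1, 2 or 3 (0.081 to 0.12) and under hybridization-control scaling (0.063).

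Nkg7, a membrane protein of cytotoxic granules, had values of 12.23, 12.46 and 12.58 in WT and 12.01, 11.16 and 12.11 in KO. The groups did not overlap, but the difference of -0.66 ± 0.25 did not pass the test (95% interval -1.24 to -0.08, limma adjusted p = 0.085). KO replicate 2 was again the lowest array.

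The genes for secreted and surface effectors fell together. Ccl5, a chemokine that memory CD8 T cells store as message, measured 12.99, 13.30 and 13.33 in WT and 11.10, 10.49 and 11.32 in KO. The gap between nearest arrays was 1.66, and Ccl5 fell 4.71-fold (-2.23 ± 0.22, limma adjusted p = 0.00033). Ifng, the macrophage-activating cytokine, stood at 8.39, 8.33 and 8.95 in WT and at 6.90, 6.13 and 7.06 in KO. Ifng fell 3.63-fold (-1.86 ± 0.27, limma adjusted p = 0.002), and its groups were 1.27 apart.

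Fasl, the ligand of the death receptor Fas, was measured by 2 probe sets that moved alike. The brighter held 8.58, 8.52 and 8.81 in WT and 7.15, 5.98 and 7.44 in KO and fell 3.44-fold (-1.78 ± 0.34, limma adjusted p = 0.0073). The dimmer held 8.02, 8.41 and 8.32 in WT and 6.67, 6.05 and 7.24 in KO and fell 3.02-fold (-1.60 ± 0.28, limma adjusted p = 0.0046). The KO arrays lay below WT on both, with KO replicate 2 lowest.

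**Figure D2:**
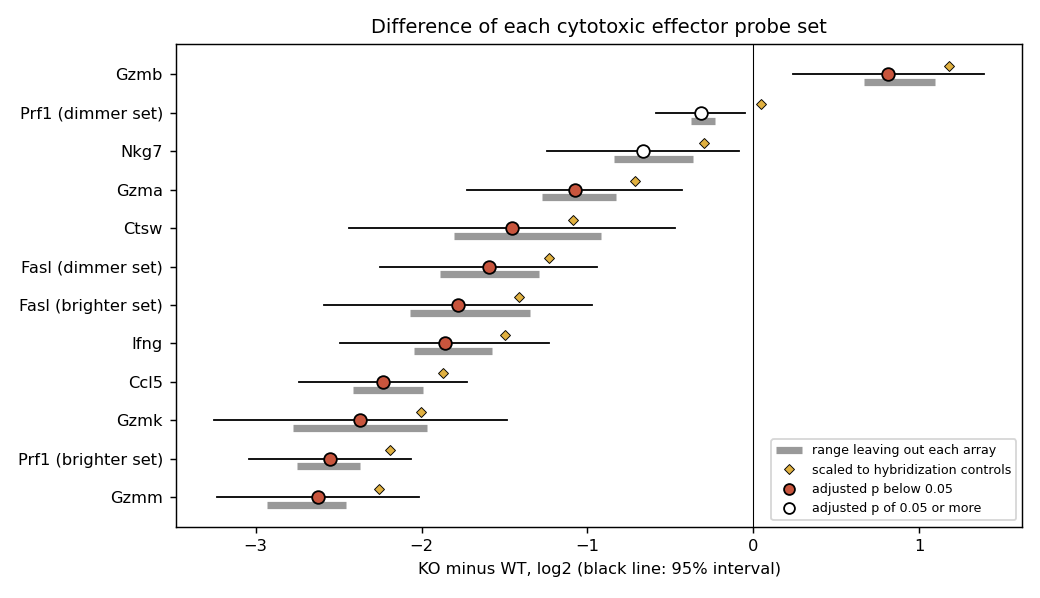
KO minus WT difference of each probe set (log2, horizontal axis) with its 95% interval (black line), the range on leaving out each array (grey bar) and the difference after scaling to hybridization controls (diamond). Gzmm, Prf1 on its brighter set, Gzmk and Ccl5 lie below -2, and Gzmb at 0.82 is the only filled point above 0.

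Without each array in turn, Gzmm, Gzmk, Ccl5, Ifng, the brighter Prf1 set and both Fasl sets stayed past the threshold, and no member changed sign. KO replicate 2 was the lowest KO array on 10 of the 12 probe sets and KO replicate 3 the highest on 11. WT replicate 1 was the lowest WT array on 9. The mean over the 10 genes was 9.88, 10.28 and 10.38 on the WT arrays and 8.77, 8.07 and 8.95 on the KO arrays.

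Markers of T cells moved in the same direction as most members, and their list means were likewise lowest in KO replicate 2. The 4 genes of the T cell receptor complex (Cd3d, Cd3e, Cd3g, Cd247) averaged 12.45 to 12.56 in WT and 10.96, 9.77 and 11.17 in KO replicates 1, 2 and 3. All 4 fell (3 without WT replicate 1), with a median of -1.70, and the CD8 coreceptor genes Cd8b1 and Cd8a fell, with differences of -2.63 ± 0.40 and -1.85 ± 0.40. Their mean was 12.73 to 12.93 in WT and 9.53 to 11.27 in KO, lowest in KO replicate 2. Of 3 CD4 T cell genes Izumo1r and Cd4 fell by 1.77 ± 0.20 and 1.58 ± 0.23, and their list mean went from between 8.19 and 8.34 to between 6.76 and 7.32.

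The members did not all follow the T cell receptor genes to the same extent. When the mean of the 4 receptor genes was subtracted on each array, Fasl on its brighter set differed by 0.10 between the genotypes, with an SD of 0.11 in WT and 0.04 in KO. Before subtraction the SD of that Fasl set in KO was 0.77. The dimmer Fasl set differed by 0.29, with an SD of 0.24 in WT and 0.29 in KO. Its KO SD before subtraction was 0.59, so the 2 Fasl sets did not follow the receptor genes equally closely. Ifng differed by 0.03, Ccl5 by -0.35, Ctsw by 0.43, Gzma by 0.81, Gzmk by -0.48, Gzmm by -0.74 and Prf1 on its brighter set by -0.67, and for each of these, as for both Fasl sets, the groups overlapped. For Nkg7 (1.22), the dimmer Prf1 set (1.57) and Gzmb (2.70) the 3 KO arrays all stood higher than the 3 WT arrays. The receptor mean was 12.45 to 12.56 in WT and 9.77 to 11.17 in KO. A probe set with equal values in both groups would therefore also stand higher in KO after subtraction. Before it, the dimmer Prf1 set differed by -0.32 and Nkg7 by -0.66. The share of all probe sets that stand higher after subtraction was not computed. These subtracted values are a description with no test, and they show unequal differences within the arrays, not which gene stayed constant.

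**Figure D3:**
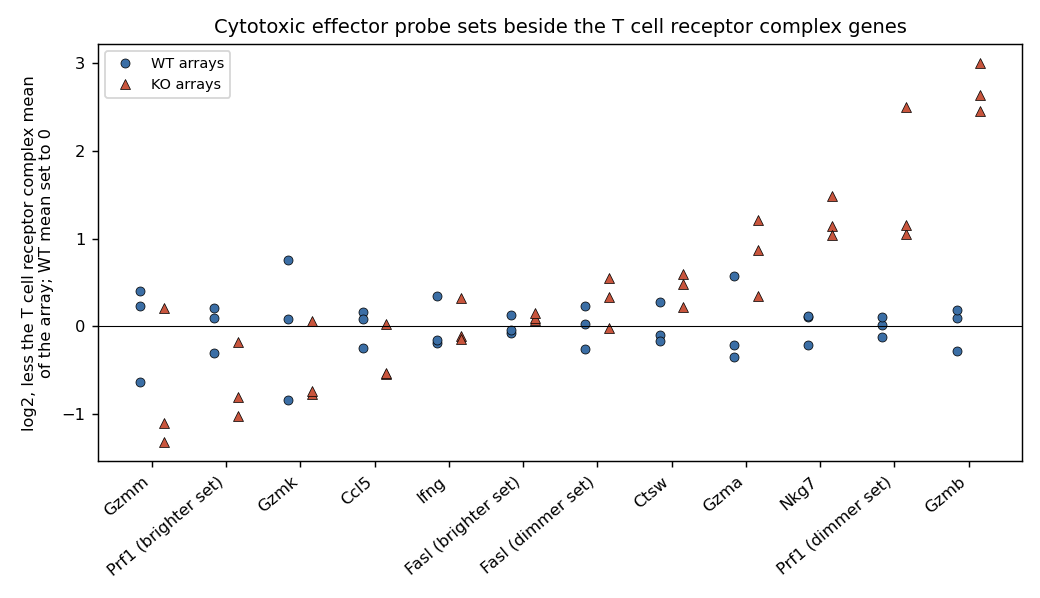
Log2 values of the 12 probe sets after subtraction of the mean of 4 T cell receptor complex genes on the same array, with the WT mean of each set at 0, for WT (circles) and KO (triangles). The KO means are 0.10 for the brighter Fasl set, 0.03 for Ifng and 0.29 for the dimmer Fasl set. The 3 KO points of Gzmb have a mean of 2.70, with KO replicate 2 of the dimmer Prf1 set among them in height.

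Markers of other blood cells rose in the same KO arrays. All 9 genes of neutrophils and their precursors rose (8 when WT replicate 1, 2 or 3 or KO replicate 3 was left out), with a list mean of 6.69 to 7.98 in WT and 11.50 to 13.68 in KO. Of 7 mast cell and basophil genes 6 rose, and the list mean went from 6.04 to 6.34 in WT to 9.30 to 9.75 in KO. All 3 eosinophil genes rose (5.50 to 5.86 in WT, 10.66 to 11.05 in KO), as did all 5 of monocytes and macrophages (5.79 to 6.44, 9.36 to 10.17) and all 3 of erythroid cells (6.61 to 7.31, 10.10 to 11.44). Of 4 dendritic cell genes Flt3 and Zbtb46 rose (6.07 to 6.24, 7.09 to 7.29). The B cell and the gamma delta and innate-like lists had 0 of 4 genes past the threshold each (1 each at an unadjusted limma p below 0.05), with 1 rising in either when KO replicate 2 was left out and 1 B cell gene also without KO replicate 3. The B cell mean was 6.54 to 7.02 in WT and 6.999 to 7.836 in KO, and that of gamma delta and innate-like T cells 6.64 to 6.91 and 6.32 to 7.06. Of 5 NK cell genes Klre1 fell by 1.71 ± 0.23 and Klrb1f and Cd244a rose by 1.72 ± 0.21 and 0.67 ± 0.08, and the list mean was 6.08 to 6.47 in WT and 6.35 to 7.04 in KO. Ncr1, which encodes the NK receptor NKp46, was dim in both groups at 4.55 and 4.68. Mouse mast cells are known to make granzyme B as well, and the part of any of these cells in the Gzmb rise or in the falls was not tested.

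The other genes of the cytotoxic pathway were read from 9 lists of 82 genes, of which 74 were measured, 28 fell and 12 rose. These are 37.8% and 16.2%, against 18.6% of all genes in each direction, so the rises are near the share over all genes. Counts in the single lists are small and are given as a description beside that share. The 6 granzymes not among the members (Gzmc, Gzmd, Gzme, Gzmf, Gzmg and Gzmn) had 0 genes past the threshold, with list means of 3.75 to 3.87 in WT and 3.59 to 3.73 in KO. At an unadjusted p below 0.05 limma gave 0 of them too. Their levels lay between the 0.0999th and the 21.3rd percentile of all probe sets, where Gzmb lay at the 85.8th. Under hybridization-control scaling Gzme and Gzmg rose, by 0.38 and 0.36.

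Of 10 measured genes of the granule matrix, protease activation and their inhibitors 3 rose and 1 fell, with a median of 0.27, and 7 rose under hybridization-control scaling. Lamp2 and Lamp1, lysosomal membrane proteins that reach the cell surface when granules fuse with it, rose by 1.84 ± 0.14 and 0.51 ± 0.10. Calr, a chaperone that binds perforin in the granule, rose by 0.84 ± 0.09. Serpinb6b, of the serpin family that inhibits granule proteases, fell by 0.92 ± 0.15. Srgn, the proteoglycan that packs granzymes, and Ctsc, the protease that activates them, differed by 0.26 ± 0.09 and 0.29 ± 0.18 and did not pass the test.

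Genes of granule traffic and exocytosis split, with 3 of 10 rising and 3 falling and a median of -0.13. Sytl2, a Rab27 effector at the plasma membrane, fell by 1.67 ± 0.42, Unc13d, which primes granules for fusion, by 0.61 ± 0.13 and Sytl1 by 0.56 ± 0.09. The SNARE proteins Stx11, Vamp7 and Vamp8 rose by 0.84 ± 0.22, 0.45 ± 0.12 and 0.39 ± 0.12. None of the 3 rises held without WT replicate 1 or 2 or KO replicate 1 or 2, and 2 held without KO replicate 3. Leaving out WT replicate 2 or 3, or KO replicate 1 or 3, ended the Sytl2 call, and the falls of Unc13d and Sytl1 were lost under hybridization-control scaling, which left 4 rises and 1 fall in the list.

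Of 9 death ligands, receptors and adaptors 5 fell and 1 rose, with a median of -0.46. Lta, which encodes lymphotoxin alpha, fell by 1.96 ± 0.27, Fas, the receptor of Fas ligand, by 1.70 ± 0.28 and Cflar, an inhibitor of caspase-8, by 1.21 ± 0.23. Tnf stood at 7.67 in WT and 7.74 in KO (0.07 ± 0.22), unlike Lta. The TNF receptor Tnfrsf1a rose by 0.74 ± 0.21, a call that held without KO replicate 2 and was lost without any other array. Under hybridization-control scaling 3 fell and 2 rose.

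Among other chemokines and the receptors of CCL5, Ccl3, an inflammatory chemokine that is made by myeloid cells too, rose by 1.82 ± 0.47 and was the only 1 of 5 genes past the threshold. Its call was lost without WT replicate 1 or KO replicate 1 or 3. Ccl4 and Xcl1, which cytotoxic cells release together with CCL5, differed by -0.61 ± 0.25 and -0.80 ± 0.26 and did not pass. The list median was 0.12. Without KO replicate 2, 2 genes rose and 1 fell, 1 fell without KO replicate 3, and 3 rose under hybridization-control scaling.

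Genes of the interferon gamma receptor and response had a median of -0.09, with 4 of 9 falling and 1 rising. The receptor kinase Jak1 fell by 1.30 ± 0.18, the transcription factor Irf1 by 1.21 ± 0.23 and the feedback inhibitor Socs1 by 0.91 ± 0.19. The receptor chain Ifngr2 rose by 0.88 ± 0.14, whereas Ifngr1 differed by -0.09 ± 0.09. The inducible chemokines Cxcl9 and Cxcl10 differed by 0.08 ± 0.13 and -0.02 ± 0.24. With hybridization-control scaling 3 rose and 2 fell.

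Transcription factors that drive cytotoxic differentiation fell in 5 of 9 cases, with a median of -1.19, and the same counts held without each array. Hopx fell by 1.75 ± 0.19, Stat4, which carries the interleukin-12 signal, by 1.55 ± 0.21 and Tbx21, which encodes T-bet, by 1.51 ± 0.30. Tbx21 binds T-box letters such as those in the windows of Gzmk and Gzmm, which fell, and Nkg7, which did not pass. The Prf1, Gzma, Fasl and Ifng windows held no such letters, and these genes fell. No binding was measured here, and a link between Tbx21 and the members was not tested. Zeb2, a factor of terminal effector cells that myeloid cells also express, rose by 3.22 ± 0.12. Runx3 and Id2 differed by -0.29 ± 0.13 and -0.51 ± 0.20 and did not pass.

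Receptors of cytokines that induce effector genes fell in 5 of 8 cases and rose in 0, with a median of -1.56. Il18r1 and Il18rap, which form the interleukin-18 receptor, fell by 2.26 ± 0.42 and 1.60 ± 0.30, and Il21r by 1.79 ± 0.28. Il12rb1 and Il12rb2, the interleukin-12 receptor chains, differed by -0.54 ± 0.20 and -0.10 ± 0.09 and did not pass. Surface receptors of effector and memory CD8 T cells fell in 5 of 8 cases and rose in 2, with a median of -1.13. Cxcr3, a chemokine receptor of effector cells, fell by 2.09 ± 0.30, Klrd1 (CD94) fell by 1.64 ± 0.37 and Klrk1 (NKG2D) fell by 1.54 ± 0.19. Cx3cr1 and the memory marker Cd44, both also present on myeloid cells, rose by 1.06 ± 0.22 and 0.67 ± 0.12. Without WT replicate 1 or 2 only 3 of these surface genes fell, and Klrd1 lost its call. Neither list changed by more than 1 call under hybridization-control scaling.

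**Figure D4:**
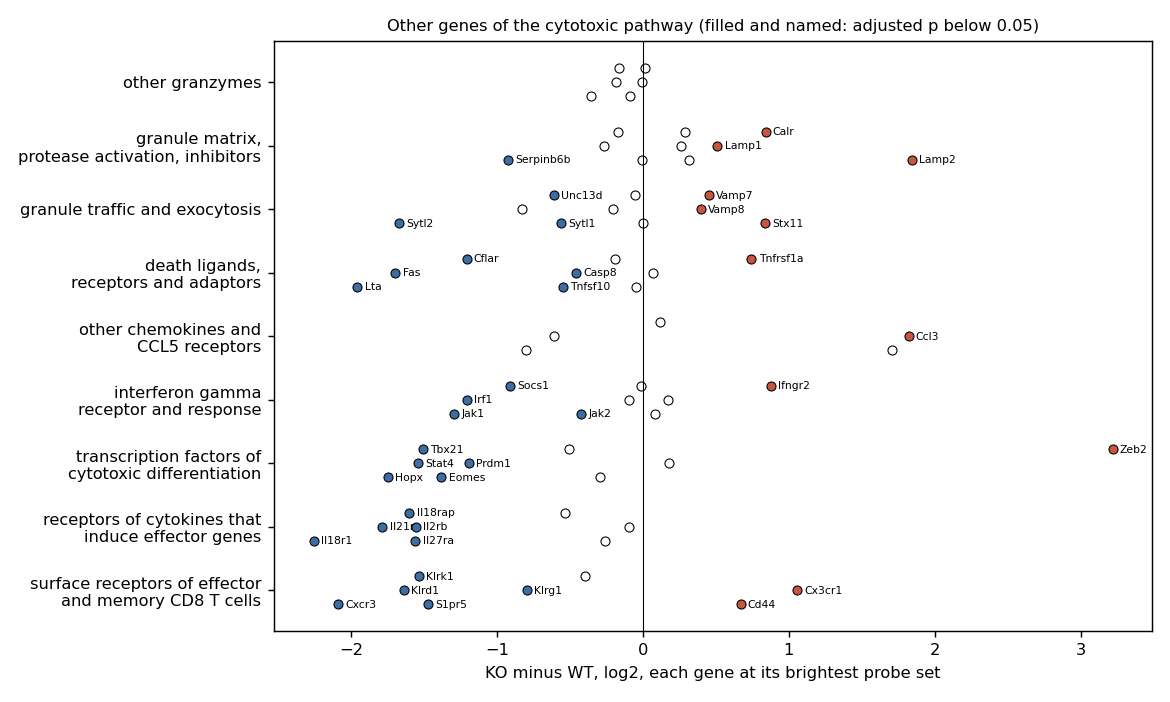
KO minus WT difference (log2, horizontal axis) of each measured gene of the 9 pathway lists (rows) at its brightest probe set, with genes past the threshold filled and named. Cytokine receptors and transcription factors lie mostly to the left of 0 with Zeb2 at 3.22 on the right, and the 6 other granzymes lie near 0.

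The position of the members in the genome set some of them beside genes that moved far in the other direction. The neighbours described next were chosen after their values were seen. Gzmb closes a cluster of granule proteases on chromosome 14, in which the 6 other granzymes follow Ctsg and the mast cell proteases. Directly beyond these granzymes Ctsg, the neutrophil cathepsin G, rose from a mean of 8.001 in WT to 13.39 in KO. The basophil protease gene Mcpt8, next to Ctsg, rose from 6.49 to 11.36. The mast cell protease genes Mcpt1 (4.75 to 10.64), Mcpt2 (5.10 to 9.62), Mcpt4 (4.64 to 9.53) and Cma1 (5.16 to 7.26) rose too. In WT these 4 lay below the median of the arrays, where RMA values give no detection call, so their folds are not exact. Gzmb rose by 0.82, and the granzymes Gzmc to Gzmn did not pass the test.

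Gzmm lies on chromosome 10 near the protease genes of neutrophil primary granules. Prtn3 and Elane, the 12th and 13th protein-coding genes downstream, rose 33.1-fold and 60.4-fold, and Gzmm fell 6.17-fold. The adjacent genes Cdc34 and Bsg differed by 0.22 ± 0.11, which did not pass, and by 1.13 ± 0.13, a rise. On chromosome 11 Ccl5 fell 4.71-fold beside other chemokine genes. Next to it Ccl9 rose 18.4-fold and Ccl3 3.53-fold, and Ccl6 rose from 5.35, below the median of the arrays in WT, to 8.50, whereas Ccl4 differed by -0.61 ± 0.25 and did not pass.

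**Figure D5:**
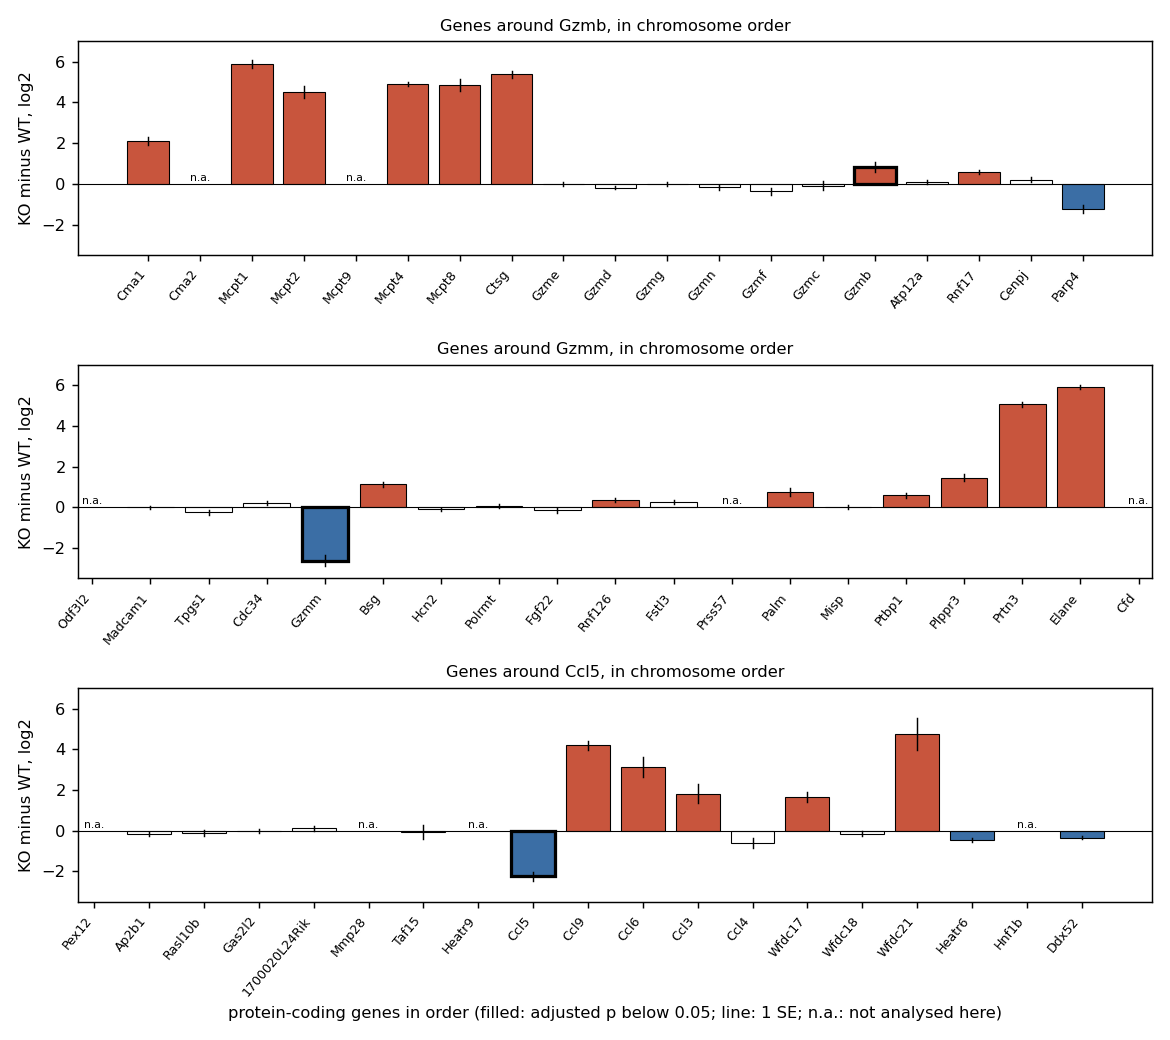
KO minus WT difference (log2, vertical axis, line 1 SE) of protein-coding genes in chromosome order around Gzmb, Gzmm and Ccl5, which have bold outlines. Tall red bars of Mcpt1, Ctsg, Elane and Ccl9 stand near a small red bar for Gzmb and blue bars for Gzmm and Ccl5.

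Likeness across the 6 arrays was described for Gzmm, the member gene with the largest difference, as the root mean square difference of log2 values after each gene's mean was removed. Among 16433 genes the 5 closest were Id3 (0.23), Scg5 (0.26), Slc6a19 (0.26), Aqp3 (0.28) and Sdcbp2 (0.30). Id3 measured 9.50, 10.07 and 9.94 in WT and 7.45, 7.56 and 7.54 in KO. Like Gzmm it was lowest in replicate 1 within both groups. The measure is dominated by the difference between genotypes, which all 5 share with falls between 2.21 for Sdcbp2 and 2.84 for Scg5.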

How the data were processed

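RNA of splenic T cells from 3 WT and 3 KO mice was amplified with oligo(dT) and random primers and hybridized to 1-colour arrays, per the labels' protocols. The deposited table holds log2 values from RMA, per the submitters' processing notes; its version is not given in the sources used here, and values of dim probe sets are compressed by such summaries. No scan batches were given.

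Of the probe sets 64 array controls were left out, and of the others 34945 had 1 gene in the platform annotation, 932 had several and 9160 were not listed there. limma 3.58.1 (R 4.3.3; lmFit and eBayes, 2-sided) compared KO with WT on the deposited values, with Benjamini-Hochberg adjustment over 45037 probe sets and a threshold of 0.05. A gene was read at its brightest probe set. The fit was tested on simulated data.

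Named were all member probe sets and, from each pathway list, up to 3 rises and 3 falls past the threshold. Genes named beside them that did not pass, the chromosomal neighbours and the subtraction of receptor genes were chosen after their values were seen. Members and lists were chosen with earlier results of these data known. Listed genes without a probe set of their own were not analysed here. Same-numbered arrays did not deviate together (r = 0.101, -0.236 and -0.204 for replicates 1, 2 and 3), so no pairing by number was used. Differently numbered KO and WT arrays gave r from -0.16 to 0.267. Whether arrays pair in another way was not tested. Alternatives were another filter, normalization, centring, scaling, variance model, array weights, a block, thresholds and leaving out arrays.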

Additional observations from a re-analysis of the deposited data

How the results depend on the processing

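The rise of Gzmb was the least stable call of the members. The count of member probe sets, and of member genes, that rose was 0 with quantile normalization repeated, with the replicate number as a block, with a minimum change of 1.5-fold, and ranged from 0 to 1 when single arrays were left out. With the 1.5-fold minimum 5 member probe sets and 5 member genes fell, and over all probe sets 2094 rose and 1164 fell. Scaling to hybridization controls gave 17309 rises and 2337 falls over all probe sets, and the dimmer Prf1 set then differed by 0.048 in place of -0.32. Apart from that set no member changed sign under the alternatives run. The replicate block, for numbers that the labels share but do not tie to litters or days, left 7 member probe sets falling, with Gzma at an adjusted p of 0.072, Gzmb at 0.055 and Ctsw at 0.062. Ctsw also missed the threshold with a trended, robust variance (0.081). An adjusted p below 0.10 added Nkg7 and the dimmer Prf1 set, which the filter on dim probe sets removes. The cause of these changes was not tested. Precision is limited by 3 arrays per group and, for the dimmer Prf1 set and the 6 other granzymes, by low signal.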

Other observations

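Over the 14 protein-coding genes on each side of every member, 206 measured neighbours that are not members included 51 rises and 41 falls. These are 24.8% and 19.9%, where 18.6% of all genes rose and 18.6% fell, so the falls are near the share over all genes. They were looked at after the member values were seen. In the region of Ifng on chromosome 10, but not adjacent to it, lie the lysozyme genes Lyz2 and Lyz1 of phagocytes. They rose by 5.75 ± 0.50 and 5.30 ± 0.44 while Ifng fell. Dyrk2, which is adjacent to Ifng, fell as well (-1.15 ± 0.10). Near Nkg7 on chromosome 7 lies Siglecf, a sialic acid receptor of eosinophils, which rose by 3.15 ± 0.18 from a dim mean of 5.08 in WT. The Schlafen genes near Ccl5 on chromosome 11, known for roles in lymphocyte quiescence, went with Ccl5 in 3 cases, with falls of Slfn1 (-2.49 ± 0.32), Slfn2 (-2.05 ± 0.31) and Slfn8 (-1.73 ± 0.21). Slfn4, a Schlafen gene of myeloid cells, differed by 2.84 ± 1.09 and Slfn3 by 0.43 ± 0.23, and neither passed the test.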
